A study of Homo sapiens with 4 samples.

Results

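The cytosolic ribosomal protein genes were examined for peaks of a pair of transcription factors in DU145 cells, a line established from a human prostate cancer. Members were protein-coding genes of the RefSeq annotation whose symbol begins with RPL or RPS and a number, or is RPLP0, RPLP1, RPLP2 or RPSA. The RPS6K kinases and chromosome Y were left out. The rule took 89 of 19970 protein-coding genes on chromosomes 1 to 22 and X, and it used no measured value. Of the 89, 55 had an RPL or RPLP symbol (large subunit, 60S) and 34 an RPS or RPSA symbol (small subunit, 40S). The rule also took 12 genes that are not standard subunits: the paralogs RPL3L, RPL7L1, RPL10L, RPL22L1, RPL26L1, RPL36AL, RPL39L and RPS27L, the readthrough genes RPL17-C18orf32, RPS10-NUDT3 and RPL36A-HNRNPH2, and RPS19BP1, whose product binds RPS19.

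The study profiled binding by chromatin immunoprecipitation and sequencing (ChIP-seq). One library held chromatin recovered through a Flag tag on ATOH8 and another chromatin recovered through a Myc tag on TCF3, each with an input library from the same line. All 4 libraries came from DU145 cells fixed with 1% formaldehyde for 10 min, with 1 library per group and no replicate. How the tagged proteins were introduced, and at what level, is stated nowhere in the labels, and an untagged control was not used here. ATOH8 is a basic helix-loop-helix (bHLH) factor of the atonal family, and TCF3 is a broadly expressed bHLH factor of the E protein class. Factors of the bHLH class bind as dimers to short DNA words called E-boxes.

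The peak lists held 4951 ATOH8 peaks and 11330 TCF3 peaks on the chromosomes used. Each peak carries a score set by the authors. Its definition is not stated, so scores were compared only within a list. No ATOH8 peak analysed here scored between 356 and 996 or between 189 and 232, and no TCF3 peak between 280 and 887. Peaks in those ranges were not analysed here, and the lack of a listed peak at a gene says nothing of whether the factor binds there. Read depth is unknown from peak lists. Intervals below are Wilson 95% intervals on shares and cover the counting of genes or peaks only. With 1 library per factor, every value describes these libraries and no test between conditions was possible.

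The ribosome translates mRNA into protein, and its small and large subunits are built from ribosomal RNA and the products of these genes. Growing cells transcribe ribosomal protein genes at very high rates and need the proteins in matched amounts. Most of their mRNAs start with a C followed by a run of pyrimidines, the terminal oligopyrimidine (TOP) motif, through which mTOR signalling and LARP1 set their translation. Many of the genes carry small nucleolar RNA (snoRNA) genes in their introns. Loss of 1 copy of several of them causes Diamond-Blackfan anaemia, an inherited failure of red cell production.

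The sequence at the annotated start is shown here for 10 of the 17 members that had a peak within 1 kb of that start, picked after the sequences were seen. RefSeq promoters (GRCh38.p14, which shares coordinates with hg38 on these chromosomes) matched 70 of the 89 members. Each line gives 10 bases before the start and 20 from it, 5′ to 3′ on the gene's strand, with the unbroken run of C and T from the start in capitals.
RPSA: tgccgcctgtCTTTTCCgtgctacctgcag
RPL14: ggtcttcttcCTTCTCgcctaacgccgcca
RPS21: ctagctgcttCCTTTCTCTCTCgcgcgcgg
RPL7A: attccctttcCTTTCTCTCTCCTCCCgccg
RPS19: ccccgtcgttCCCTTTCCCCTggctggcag
RPLP1: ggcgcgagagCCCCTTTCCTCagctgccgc
RPL35: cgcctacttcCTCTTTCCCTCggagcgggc
RPL12: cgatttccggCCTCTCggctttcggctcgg
RPS15: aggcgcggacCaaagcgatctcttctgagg
RPL10L: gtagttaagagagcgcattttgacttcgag
These windows lie at chr3:39406710-39406739 (RPSA, plus strand), chr3:40457329-40457358 (RPL14, plus), chr20:62387093-62387122 (RPS21, plus) and chr9:133348208-133348237 (RPL7A, plus). The next lie at chr19:41860245-41860274 (RPS19, plus), chr15:69452808-69452837 (RPLP1, plus), chr9:124861938-124861967 (RPL35, minus) and chr9:127451387-127451416 (RPL12, minus). The last 2 lie at chr19:1438386-1438415 (RPS15, plus) and chr14:46651762-46651791 (RPL10L, minus). RPL7A had the longest run of the 10, with 16 pyrimidines. RPS15 and RPL10L, a retrogene paralog of RPL10, had runs of 1 and 0. Among the other 7 members with a peak near the start, the run was 12 bases at RPL26, 6 at RPL36, 3 at RPL36AL and RPS7, 2 at RPL13, 1 at RPS29 and 0 at RPL26L1. The 10 printed sequences therefore hold more long runs than those 7. A C with at least 4 further pyrimidines stood at 10 of the 17 (58.8%, 36.0 to 78.4%) and at 34 of the 53 members without a peak there (64.2%, 50.7 to 75.7%).

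A C at the start followed by at least 4 further C or T bases was found at 44 of 70 members (62.9%, 51.1 to 73.2%), against 726 of 15811 protein-coding genes with a promoter (4.59%). The run from the start had a median of 6.5 bases in the members and 0 over all genes. A second feature of the genes was the snoRNA host role: 30 of 89 members (33.7%, 24.7 to 44.0%) held an annotated snoRNA gene, against 526 of 19970 protein-coding genes (2.63%). The members were short, with a median length of 5057 bp, against 24190 bp over all genes. For both features the intervals of members with and without peaks overlapped. The pyrimidine start was present in 11 of 18 matched members with an ATOH8 peak and 33 of 52 without one. It was present in 9 of 15 with a TCF3 peak and 35 of 55 without one. snoRNA genes lay in 7 of 23 members with an ATOH8 peak and 23 of 66 without one, and in 6 of 19 members with a TCF3 peak and 24 of 70 without one.

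**Figure D1:**
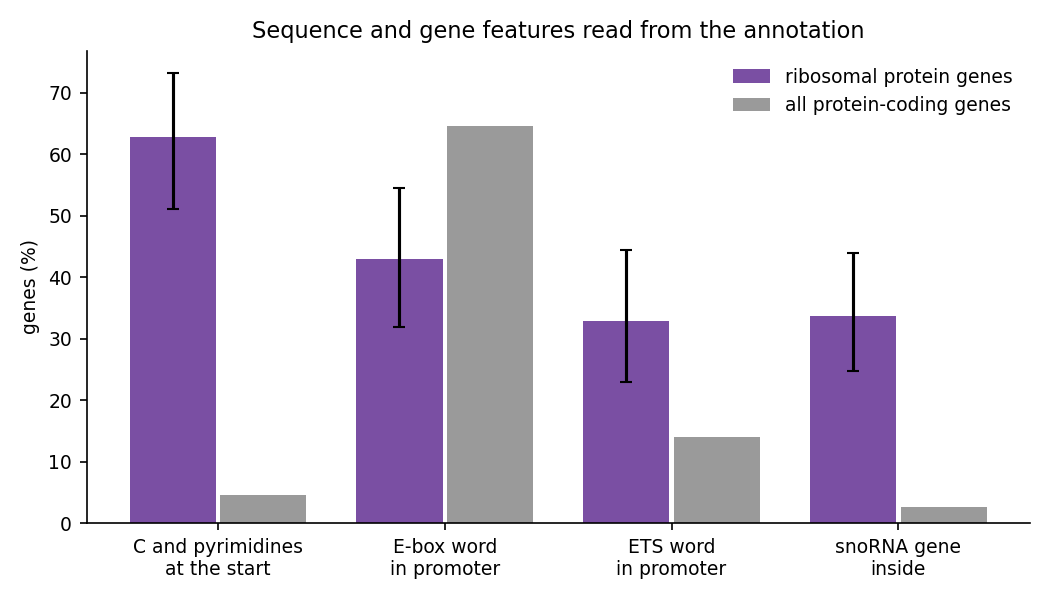
Share of genes (%) with each feature read from the annotation, for ribosomal protein genes (purple, with Wilson 95% intervals) and all protein-coding genes (grey). Pyrimidine starts stand at 62.9% against 4.59%, E-box words at 42.9% against 64.6%, ETS words at 32.9% against 14.1% and snoRNA genes at 33.7% against 2.63%.

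The first question was how many members had a peak of either factor with its midpoint within 5 kb of a gene end. An ATOH8 peak lay at 23 of 89 members (25.8%, 17.9 to 35.8%), where 22.7% of all protein-coding genes had one. A TCF3 peak lay at 19 of 89 members (21.3%, 14.1 to 31.0%), where 28.5% of all genes had one. Peaks of both factors lay at 7 members (7.87%, 3.86 to 15.4%), against 9.74% of all genes, and no listed peak lay at 54 members (60.7%, 50.3 to 70.2%), against 58.5%. All 4 intervals held the share of all genes, so none of these counts sets ribosomal protein genes apart. The members just inside the 5 kb limit were RPL26L1 (4563 bp) and RPL3L (4959 bp) for ATOH8 and RPS3 (3175 bp) and RPL24 (4339 bp) for TCF3. Outside it lay RPL22 (7057 bp) for ATOH8 and RPS21 (5402 bp) and RPL8 (6761 bp) for TCF3.

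**Figure D2:**
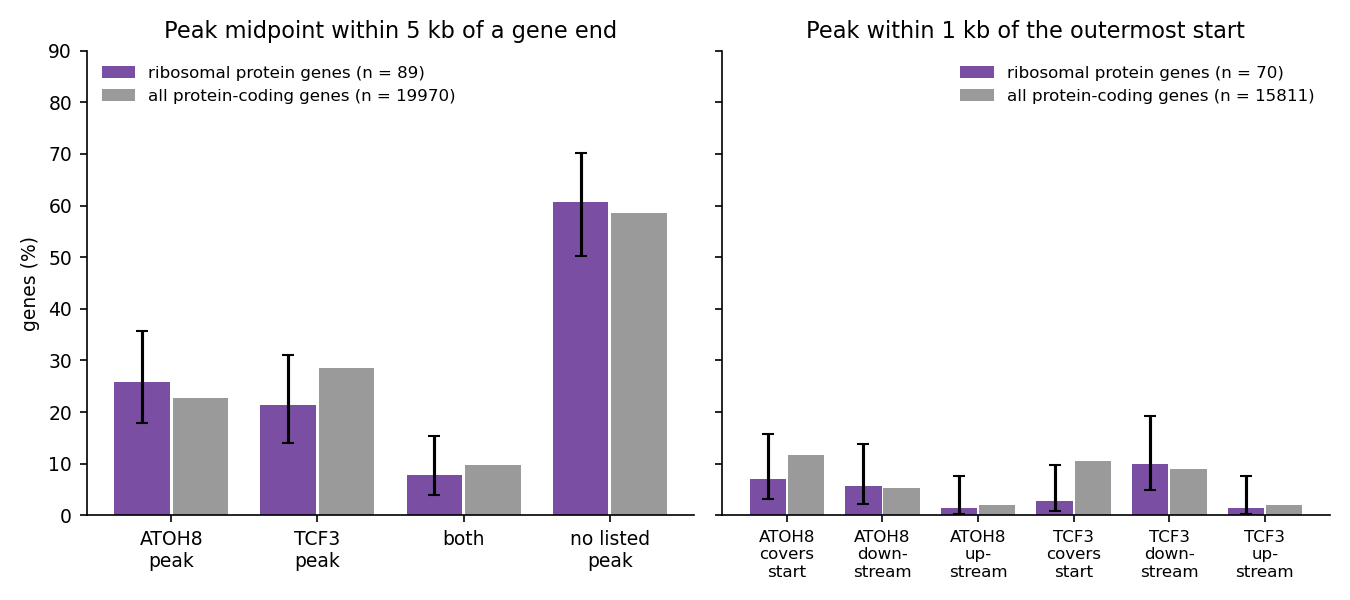
Left, share of genes (%) with a peak midpoint within 5 kb of a gene end. Right, share with a peak within 1 kb of the outermost annotated start, by position of the peak. Purple bars are ribosomal protein genes with Wilson 95% intervals and grey bars are all protein-coding genes. The TCF3 bar for peaks that cover the start stands at 2.86% against 10.5% for all genes, and other purple bars have the grey level within their interval.

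Many of these peaks lay closer to another gene. An end of another, non-ribosomal protein-coding gene lay within 5 kb of an end of 60 of 89 members (67.4%, 57.1 to 76.3%), against 49.9% of all protein-coding genes. Such a neighbour was present at 21 of 23 members with an ATOH8 peak and 39 of 66 without one, and at 17 of 19 members with a TCF3 peak and 43 of 70 without one. The 27 distinct ATOH8 peaks had a member as the nearest gene in 12 cases (44.4%, 27.6 to 62.7%), and the 20 TCF3 peaks in 10 (50%, 29.9 to 70.1%). Counting only peaks nearest to a member, 11 members had an ATOH8 peak (12.4%, against 18% of all genes under the same rule) and 10 had a TCF3 peak (11.2%, against 23.8%). Both of these shares lay below those of all genes. They carry no interval here, and the statement on the 5 kb intervals above does not cover them. The part of the neighbours in the 5 kb counts and in the nearest-gene counts was not tested.

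**Figure D3:**
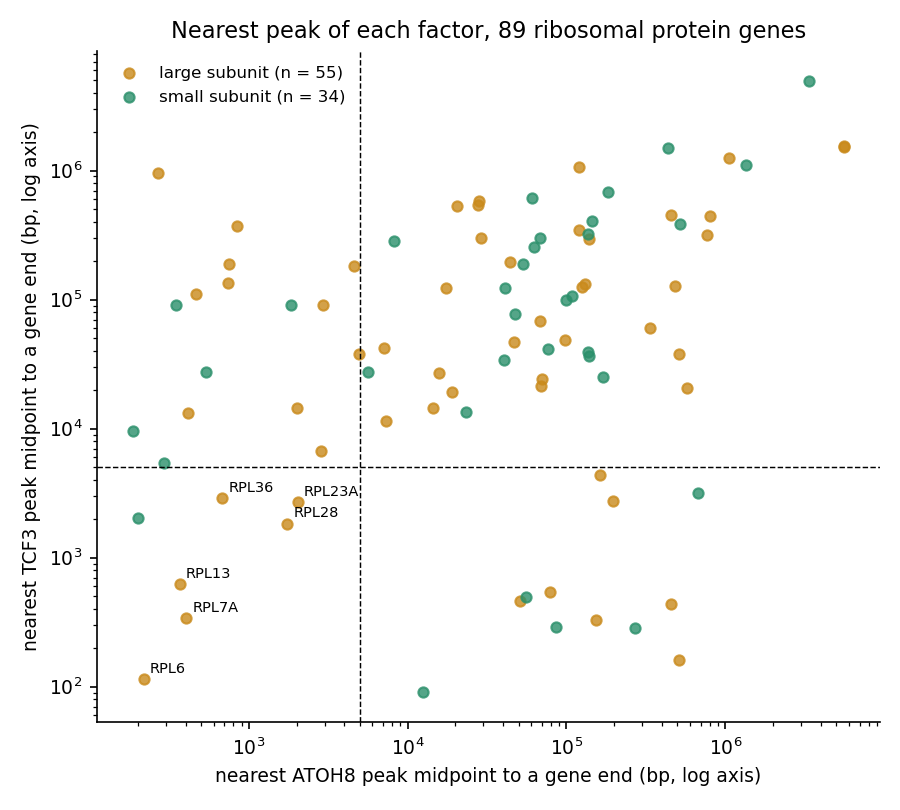
Distance (bp, log axes) from the nearer end of each of the 89 ribosomal protein genes to the nearest ATOH8 peak midpoint (x) and the nearest TCF3 peak midpoint (y), with large-subunit genes in orange and small-subunit genes in green. Dashed lines mark 5 kb, and the 7 genes in the lower left, of which the large-subunit genes are named, had peaks of both factors within it.

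The large-subunit genes carried ATOH8 peaks in 17 of 55 cases (30.9%, 20.3 to 44.0%) and the small-subunit genes in 6 of 34 (17.6%, 8.35 to 33.5%). TCF3 peaks lay at 13 of 55 large-subunit genes (23.6%, 14.4 to 36.3%) and 6 of 34 small-subunit genes (17.6%, 8.35 to 33.5%). The intervals of the subunits overlapped for both factors. Counting only peaks nearest to a member turned the order for ATOH8, with 5 of 55 large-subunit genes (9.09%) and 6 of 34 small-subunit genes (17.6%). For TCF3 it gave 6 of 55 (10.9%) and 4 of 34 (11.8%), and the higher-ranked 50% of peaks gave 8 of 55 (14.5%) and 5 of 34 (14.7%). The paralogs carried ATOH8 peaks in 4 of 8 cases (RPL26L1, RPL36AL, RPL3L and RPL7L1) and a TCF3 peak in 1, RPL10L. The ATOH8 interval for the paralogs, 21.5 to 78.5%, held the 22.7% of all genes. Their TCF3 interval, 2.24 to 47.1%, held the 28.5% of all genes. Another gene lay nearer to the ATOH8 peaks of RPL36AL, RPL3L and RPL7L1, but not to that of RPL26L1. Without the 12 non-standard genes, 19 of 77 members had an ATOH8 peak and 18 of 77 a TCF3 peak. No peak lay at RPS19BP1 or at the readthrough genes.

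Only at RPL7A and RPL13 was a member the nearest gene to peaks of both factors that shared bases. RPL7A, a large-subunit gene on chromosome 9 (133348218 to 133351426), had an ATOH8 peak from 133348276 to 133348969 with score 52, above 1.17% of the ATOH8 list. Its TCF3 peak ran from 133348276 to 133348842 with score 79, above 64.3% of the TCF3 list. The TCF3 peak lay wholly within the ATOH8 peak, and both began at the same base, 58 bp downstream of the start. Among 1267 overlapping pairs at gene ends of all protein-coding genes, 17 began at the same base (1.34%). The gene also has a neighbour, MED22, a Mediator subunit gene with an end 491 bp from the ATOH8 midpoint and 428 bp from the TCF3 midpoint.

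RPL13, another large-subunit gene (chromosome 16, 89560657 to 89566829), had an ATOH8 peak from 89560268 to 89561782 with score 74, above 39.7% of that list. Its TCF3 peak ran from 89560703 to 89561855 with score 111, above 84.4% of that list. The ATOH8 peak covered the gene start and the TCF3 peak began 46 bp downstream of it, with 1079 bp shared. No other protein-coding gene end lay within 3257 bp of either midpoint.

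RPL28, RPL6, RPL23A and RPL36 had a closer neighbour for at least 1 of the peaks. At RPL28 (chromosome 19, 55385932 to 55403342) the ATOH8 peak from 55383955 to 55384435 had score 186, the highest ATOH8 score among the members and above 95% of the list. The TCF3 peak there, 55383795 to 55384395, had score 53. These peaks lay 1737 and 1837 bp before RPL28 but 97 and 197 bp from an end of TMEM238. RPL6 (chromosome 12, 112405181 to 112418835) had an ATOH8 peak from 112418479 to 112419627 (score 99) and a TCF3 peak from 112418490 to 112419411 (score 49) across its higher-coordinate end. The midpoints lay 218 and 115 bp from RPL6 and 106 and 3 bp from PTPN11, the gene of the SHP2 phosphatase.

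RPL23A encodes a protein near the exit of the nascent chain tunnel (chromosome 17, 28719985 to 28724359). It had ATOH8 peaks from 28725793 to 28726979 (score 115) and from 28717133 to 28718143 (score 56), nearest to TLCD1 and RAB34. Its TCF3 peak from 28716927 to 28717627 (score 131, above 87.8% of the list) shared 494 bp with the second of these. RPL36 (chromosome 19, 5690295 to 5691875) lay entirely under an ATOH8 peak from 5690270 to 5692126, at 1856 bp the widest among the members, with score 65. The midpoint of that peak lay 677 bp from an end of RPL36 and 636 bp from an end of LONP1. The second ATOH8 peak of RPL36, 5686216 to 5687080 (score 128), shared 225 bp with the TCF3 peak from 5686855 to 5687943 (score 53). That pair lay nearest to HSD11B1L.

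Among members with ATOH8 alone, RPL26 had the highest score. RPL26 encodes a 60S protein that is mutated in some cases of Diamond-Blackfan anaemia (chromosome 17, 8377516 to 8383193). Its peak from 8383379 to 8384514 had score 163, above 89.8% of the list, and its nearer edge lay 186 bp upstream of the start. A second peak (8376516 to 8376865, score 91) lay 14 bp from an end of KRABD2. RPL36AL (chromosome 14, 49618530 to 49620626) had a peak of score 128 from 49620312 to 49621771 that covered its start, nearest to MGAT2. RPL38 (chromosome 17, 74203678 to 74210655), which in mouse is known for the translation of Hox mRNAs, had a peak of score 115 from 74213413 to 74213760. That peak lay 15 bp from an end of TTYH2 and 2931 bp from RPL38.

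In the small subunit, RPSA had the highest ATOH8 score. RPSA encodes a 40S protein also described as a laminin receptor (chromosome 3, 39406720 to 39412542). Its peak ran from 39406738 to 39407397 with score 107, above 67.4% of the list, inside the gene and from 18 bp downstream of the pyrimidine start shown above. RPS2 (chromosome 16, 1962058 to 1964826) had a peak of score 102 inside the gene, from 1963773 to 1964801. Its other peak, from 1959359 to 1959937 with score 62, was also the peak counted for RPL3L, the striated muscle paralog of RPL3, and lay 110 bp from NDUFB10. RPS21 (chromosome 20, 62387103 to 62388520) had a peak from 62386147 to 62387474 with score 85 that covered the start. RPS15 (1438413 to 1438751, score 70) and RPL14 (40457377 to 40457835, score 60) had peaks that began 17 and 38 bp downstream of the start. RPL7L1 had a peak of score 99 from 42890503 to 42890787 on chromosome 6, 176 bp from PEX39.

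The remaining ATOH8 peaks had scores of 65 to 96, all but those of RPL26L1 (score 86) and RPS16 with another gene nearer. At RPL8 the nearer gene was ZNF34, at RPL41 ZC3H10, at RPL4 SNAPC5, and at RPLP0, the P stalk core, it was GCN1, whose product senses stalled ribosomes. RPS16 had a peak of score 65, 1839 bp outside the gene.

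TCF3 peaks without ATOH8 lay at 12 members, and the highest score was at RPS29 (chromosome 14, 49570988 to 49598710), a Diamond-Blackfan anaemia gene. Its peak from 49599608 to 49600127 had score 164, above 93.5% of the TCF3 list, and lay nearest to LRR1. A second peak from 49598456 to 49599146 covered the RPS29 start with score 45. RPL10L (chromosome 14, 46651010 to 46651781) came next, with a peak from 46651049 to 46652190 and score 143, above 90.3% of the list. That peak covered the start, and the next non-ribosomal protein-coding gene end, of MDGA2, lay 188004 bp away. RPL7 (chromosome 8, 73290242 to 73294466) had a peak of score 89 from 73294317 to 73295488 across its higher-coordinate end, 300 bp from RDH10.

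A series of TCF3 peaks began just inside the gene. RPS7, a small-subunit gene, had a peak of score 87 from 3575353 to 3576158 on chromosome 2. RPLP1, which encodes an acidic protein of the stalk that recruits elongation factors, had one of score 84 from 69452907 to 69453386 on chromosome 15. RPS19, the first gene linked to Diamond-Blackfan anaemia, had one of score 65 from 41860260 to 41860827, only 5 bp from the start. RPL12, a protein of the stalk base, had one of score 64 from 127450537 to 127451356, and RPL35 one of score 60 from 124860918 to 124861911, both on chromosome 9. These 5 peaks lay wholly inside the gene. The other TCF3 peaks lay outside their member: RPL19 (score 79, nearest to CACNB1), RPS3 (score 70, nearest to KLHL35) and RPL24 (score 36, nearest to LOC124906262).

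**Figure D4:**
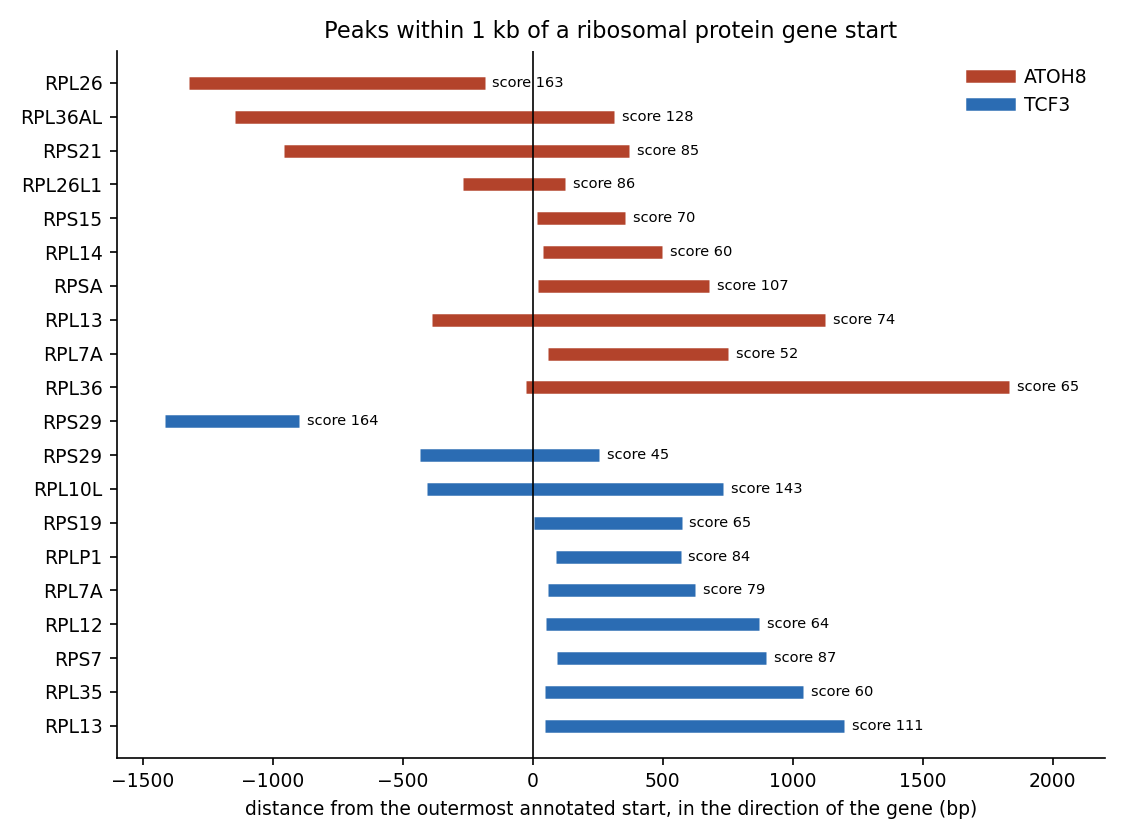
Extent of each peak within 1 kb of the outermost annotated start of a ribosomal protein gene, in bp along the direction of the gene, with ATOH8 in red, TCF3 in blue and the score beside each bar. Of the 10 TCF3 peaks, 7 begin 5 to 93 bp downstream of the start, against 4 of the 10 ATOH8 peaks, which begin 17 to 58 bp downstream.

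Position relative to the start was then counted for the 70 members with a matched promoter, using the outermost annotated start. It was the gene's end in 67 of them, while for RPL6 and RPL26L1 it lay 7393 and 4635 bp inside the annotated gene. ATOH8 peaks covered the start of 5 members (7.14%, 3.09 to 15.7%, against 11.6% of all genes) and lay wholly downstream within 1 kb at 4 (5.71%, 2.24 to 13.8%, against 5.27%). TCF3 peaks covered the start of 2 members (2.86%, 0.787 to 9.83%, against 10.5% of all genes) and lay wholly downstream at 7 (10.0%, 4.93 to 19.2%, against 8.97%). The interval for TCF3 peaks that cover a start ended below the share of all genes. This comparison was chosen after the positions were seen, and it rests on 2 members. A peak wholly upstream lay at RPL26 for ATOH8 (1.43% of members, against 2.1%) and at RPS29 for TCF3 (1.43%, against 1.92%). Of the TCF3 peaks within 1 kb of a start, 7 of 10 at members were wholly downstream (70%, 39.7 to 89.2%), against 1422 of 3383 over all genes (42.0%). The near edges of those peaks lay at a median of 50 bp from the start in members and 97.5 bp over all genes. For ATOH8 the share was 4 of 10 (40%, 16.8 to 68.7%), against 835 of 2999 (27.8%), with medians of 28 and 84 bp.

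The scores of these peaks were ordinary for their lists. The 27 ATOH8 peaks at members ran from 51 to 186 with a median of 91, against 86 for ATOH8 peaks within 5 kb of any protein-coding gene end. The 20 TCF3 peaks ran from 36 to 164 with a median of 74.5, against 66. The median of the members had 95% order-statistic intervals of 70 to 102 and 53 to 87, which held those values. Of the ATOH8 peaks at members, 6 of 27 shared a base with a TCF3 peak (22.2%, 10.6 to 40.8%), against 33.0% of ATOH8 peaks at all gene ends. For TCF3 it was 6 of 20 (30%, 14.5 to 51.9%), against 22.5%.

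**Figure D5:**
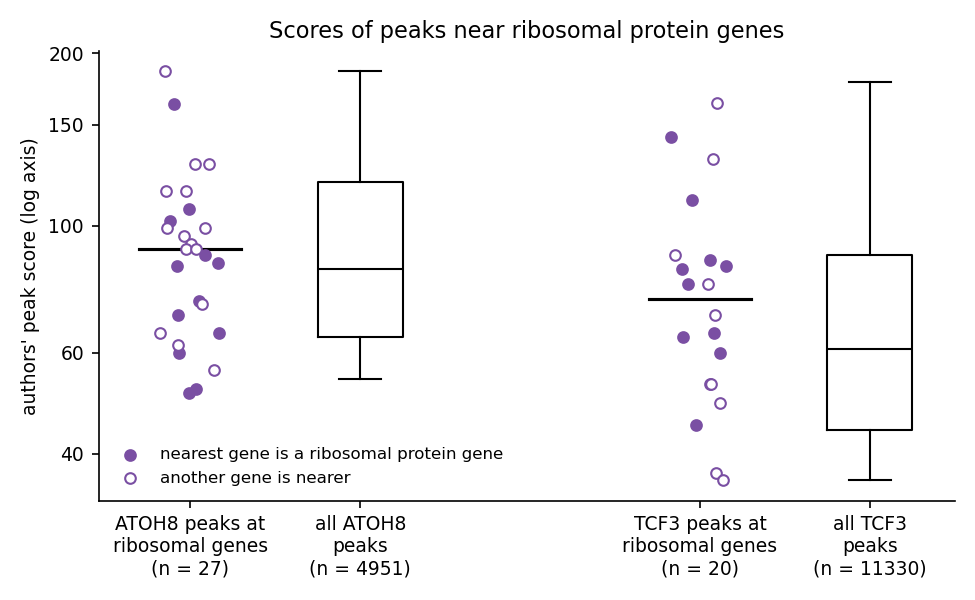
Authors' peak score (log axis) of distinct peaks within 5 kb of a ribosomal protein gene end, with the median as a line, beside all peaks of the same list (box, quartiles and median; whiskers, 5th to 95th percentile). Filled points have a ribosomal protein gene as the nearest gene and open points another gene. ATOH8 points run from 51 to 186 and TCF3 points from 36 to 164.

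Promoters were searched on both strands for short words in the 300 bases from 250 before the start to 50 after it. The E-box CANNTG was found in 30 of 70 member promoters (42.9%, 31.9 to 54.5%), against 64.6% of all 15811 promoters. One E-box form, CAGCTG, was found in 6 of 70 member promoters (8.57%, 3.99 to 17.5%, against 17.6% of all promoters). Another form, CAGGTG, was also found in 6 member promoters (8.57%, 3.99 to 17.5%, against 19.9% of all promoters). The form bound by MYC, CACGTG, was found in 4 member promoters (5.71%, 2.24 to 13.8%, against 8.82% of all promoters). All of these are counted under CANNTG too. CCGGAAG, a word bound by ETS factors, was found in 23 of 70 (32.9%, 23 to 44.5%), against 14.1% of all promoters. A word bound by YY1, AAGATGGC, was found in 7 member promoters (10.0%, 4.93 to 19.2%), against 3.86%. TCT centred on the start was found in 14 of 70 (20%, 12.3 to 30.8%), against 2.22%. CAGCTG was in 4 of 15 matched members with a TCF3 peak and 2 of 55 without one, with intervals of 10.9 to 52.0% and 1.0 to 12.3%. Under a TCF3 peak, CAGCTG lay at RPS29 and RPL10L, while the peaks of RPLP1 and RPL24 did not cover the word. CAGGTG was in 3 of 18 with an ATOH8 peak and 3 of 52 without one (5.84 to 39.2% and 1.98 to 15.6%). For the opposite pairings the share was lower with a peak than without. CAGCTG was in 0 of 18 with an ATOH8 peak and 6 of 52 without one, and CAGGTG in 1 of 15 with a TCF3 peak and 5 of 55 without one. In all of these CAGCTG and CAGGTG comparisons the intervals with and without a peak overlapped. They therefore show no preference of either factor for either word. The CAGGTG counts were also added after seeing the data. For CANNTG the counts were 7 of 18 and 23 of 52 for ATOH8, and 8 of 15 and 22 of 55 for TCF3.

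Where a peak and the promoter window overlap, the words can be placed under the peak. They are shown for RPS29, whose start lay under a TCF3 peak, for RPL36AL, whose start lay under an ATOH8 peak, and for RPLP1, whose TCF3 peak began downstream of its E-box. Each line runs from 150 bases before the start to 30 from it, on the gene's strand, with CANNTG in capitals.
RPS29: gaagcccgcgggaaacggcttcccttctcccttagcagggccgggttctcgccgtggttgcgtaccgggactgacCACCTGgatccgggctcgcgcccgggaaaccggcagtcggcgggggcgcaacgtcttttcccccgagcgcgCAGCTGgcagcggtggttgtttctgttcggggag
RPL36AL: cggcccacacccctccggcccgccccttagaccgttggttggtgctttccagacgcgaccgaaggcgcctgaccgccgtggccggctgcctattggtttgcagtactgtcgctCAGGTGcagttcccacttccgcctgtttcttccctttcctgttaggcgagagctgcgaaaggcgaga
RPLP1: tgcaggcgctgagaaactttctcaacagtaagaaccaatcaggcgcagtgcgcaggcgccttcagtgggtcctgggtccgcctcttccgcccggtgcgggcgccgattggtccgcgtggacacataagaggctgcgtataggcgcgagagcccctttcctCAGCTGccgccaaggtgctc
These stretches lie at chr14:49598681-49598860 (RPS29, minus strand), chr14:49620597-49620776 (RPL36AL, minus) and chr15:69452668-69452847 (RPLP1, plus). The RPS29 promoter held 3 E-boxes under the TCF3 peak that covers the start, and RPL36AL held 3 under its ATOH8 peak, not all of them within the stretches printed. RPL10L held 3 under its TCF3 peak, all more than 150 bases before the start, and RPS21 held 1 under its ATOH8 peak. RPL13 and RPL26L1, whose 300 bases lay wholly under an ATOH8 peak, held none in those bases. The peaks that began downstream of the start covered 0 to 45 of the 300 bases, and no E-box lay in those stretches. These counts use the outermost start. Near a second annotated start, RPL26L1 held CAGGTG under its ATOH8 peak and RPS19 held CACGTG under its TCF3 peak. Other sequence further inside these genes was not used here, so the words say nothing of it.

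The Diamond-Blackfan anaemia genes carried an ATOH8 peak in 1 of 18 cases (RPL26; 5.56%, 0.988 to 25.8%, against 22.7% of all genes). They carried TCF3 peaks in 5 of 18 (among them RPL35, RPS19, RPS29 and RPS7; 27.8%, 12.5 to 50.9%, against 28.5%). No listed peak lay within 5 kb of RPL5, RPL11 or RPL23, whose free proteins bind the ubiquitin ligase MDM2. None lay at RPS6, the substrate of the S6 kinases, or at RPS14, the gene linked to anaemia in the 5q deletion. Lack of a listed peak was common, at 60.7% of members and 58.5% of all genes, so it does not set these genes apart. MDM2 itself had an ATOH8 peak (score 83) and a TCF3 peak (score 47).

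The other parts of the translation pathway gave the following counts. Of 9 elongation factor genes, 5 had an ATOH8 peak (55.6%, 26.7 to 81.1%) and 6 a TCF3 peak (66.7%, 35.4 to 87.9%). Peaks of both factors lay at 5 (55.6%, 26.7 to 81.1%), against 9.74% of all genes. The single-factor intervals also lay above the shares of all genes, 22.7% and 28.5%, but the list is short and was not tested. Whether another gene lay nearer to these peaks is not given here. The highest scores, with the distance of that peak's midpoint from a gene end, were as follows. EEF1A1, which encodes the factor that delivers aminoacyl-tRNA, had scores of 147 for ATOH8 (2536 bp) and 48 for TCF3 (314 bp). EEF2, the translocation factor gene, had 99 for ATOH8 (4869 bp) and 85 for TCF3 (293 bp). EIF5A, whose product relieves stalling at proline runs, had 185 for ATOH8 (2770 bp) and 86 for TCF3 (2683 bp). EEF1A2, the EEF1A form of muscle and neurons, had 54 for ATOH8 (239 bp) and 202 for TCF3 (83 bp). Among the 13 subunit genes of the initiation factor eIF3, 4 had an ATOH8 peak and 3 a TCF3 peak. Of 17 other initiation factor genes, 5 for ATOH8 and 6 for TCF3 did, of 26 ribosome biogenesis genes 6 and 5, and of 13 genes of TOP mRNA control and nutrient signalling 3 and 3. FAU, which encodes a 40S protein but is outside the rule by its name, had an ATOH8 peak 3366 bp and a TCF3 peak 3362 bp from an end. RACK1, another such gene, had none. The mitochondrial ribosomal protein genes carried ATOH8 peaks in 20 of 77 cases (26%, 17.5 to 36.7%) and TCF3 peaks in 15 (19.5%, 12.2 to 29.7%).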

How the data were processed

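Each peak list gives chromosome, start, end and a score, the authors' own value as deposited, with no normalization stated. The columns hold peak coordinates on hg38, per the submitters' processing notes. No aligner, peak caller, threshold, score definition or use of the inputs is given in the sources used here, nor whether coordinates count from 0 or 1. The name of each list gave its factor, and inputs were not analysed here.

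Gene ends came from RefSeq GRCh38.p14, and starts, strands and sequences from its promoter table, matched by gene ID. A peak was counted at a gene when its midpoint lay within 5 kb of either end. Overlap meant at least 1 shared bp. No p-value was computed: shares have Wilson 95% intervals and stand beside the share of all protein-coding genes. The assignment of peaks was checked on simulated peaks.

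The members and lists were chosen with earlier results of these data known. Given in full were members with both factors and the 10 highest scores per factor, apart from some members counted but not reported here. Positions relative to the start and the CAGGTG, ETS and YY1 words were added after seeing the data. Alternatives were other windows, the peak edge, the nearest gene only, subsets of peaks by score, standard subunits only and starts only. Python 3.11.15, numpy 2.4.6, pandas 2.3.3, scipy 1.17.1, statsmodels 0.14.6 and matplotlib 3.10.9 were used.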

Additional observations from a re-analysis of the deposited data

How the results depend on the processing

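Counts followed the window. Shares of all genes with both factors, or with no listed peak, are given for the 5 kb window only. Within 1 kb, 15 members had an ATOH8 peak, 12 a TCF3 peak and 3 both (10 and 8 in the large subunit), against 17.6% and 20.3% of all genes. Within 50 kb the numbers were 42, 44 and 24, with 27 without a peak (29 and 28 in the large subunit, 13 and 16 in the small), against 43.2% and 52.9%. Nearest-gene assignment gave 11, 10 and 2 (5 and 6 in the large subunit). The higher-ranked 50% of peaks (12.3% and 16.7% of all genes) left 1 member with both factors and 8 large-subunit genes with TCF3. With equal numbers of peaks, 11 members had TCF3 (7 large-subunit; 14.7% of all genes) and 3 had both. From the outermost start only, over 70 members, the counts were 13, 12 and 4 (20.5% and 24.5% of all genes), with 9 large-subunit genes for ATOH8 and 3 small-subunit genes for TCF3. Those 5 counts come from fewer genes, and as a share only 1 of them, ATOH8 in the large subunit (20%, against 30.9%), moved by over 1.5 times. In all, 28 of 88 recomputed values moved, these 5 included (counts by over 1.5 times), and no median of scores left its interval (not recomputed for the higher-ranked 50%). No paired analysis was possible because each group has 1 library. No library could be left out for the same reason. Peaks of scores absent from the lists, unknown depth and the lack of a replicate limit every count.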

Other observations

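The genome also holds many processed copies of ribosomal protein genes. ATOH8 peaks lay within 5 kb of 38 of 1962 annotated ribosomal protein pseudogenes (1.94%, Wilson 95% interval 1.41 to 2.65%), against 2.53% of all 16458 annotated pseudogenes. TCF3 peaks lay at 200 of 1962 (10.2%, 8.93 to 11.6%), against 15.7%. How reads that match both a gene and its copies were placed is not stated.

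The nearest ATOH8 midpoint lay at a median of 55756 bp from a ribosomal protein gene end, against 75205 bp over all protein-coding genes. For TCF3 the medians were 60262 and 42092 bp. No listed peak of either factor lay within 50 kb of 27 of the 89 ribosomal protein genes (30.3%). The share of all genes without such a peak is not given here, so this count does not set the members apart. For single factors within 50 kb, 47.2% of members and 43.2% of all genes had an ATOH8 peak, and 49.4% and 52.9% a TCF3 peak.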
